A study of Ovis aries with 12 samples.

Results

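The miRNAs miR-15, miR-16, miR-195, miR-497, miR-424 and miR-503 were described in cultured pulmonary artery endothelial cells of lambs. Table entries were taken when any of their joined names, stripped of species, arm and copy, was miR-15a, miR-15b, miR-16, miR-16a, miR-16b, miR-195, miR-497, miR-322, miR-424 or miR-503. The rule found 9 of the 470 entries, and all 9 were among the 468 that passed the filter on low counts. They were 4 entries of the miR-15/16 clusters, 2 of the cluster of miR-195 and miR-497 and 3 of the cluster of miR-424 and miR-503.

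These miRNAs are short RNAs that pair with target mRNAs mainly through the seed near their 5′ end, and the guide strands of miR-15, miR-16, miR-195, miR-424 and miR-497 share 1 seed. They are known to lower cyclins and other drivers of the G1 to S step of the cell cycle, and in endothelial cells also VEGF-A, its receptor VEGFR2 and the FGF receptor FGFR1. Mammals carry them in separate genomic clusters: miR-15a beside a copy of miR-16 in the DLEU2 host gene, miR-15b beside another copy of miR-16 in SMC4, a condensin gene, miR-497 beside miR-195 in MIR497HG, and miR-424 (miR-322 in rodents) beside miR-503 on the X chromosome. By the RefSeq annotation of sheep (ARS-UI_Ramb_v3.0) the hairpin gene MIR16B lay within SMC4.

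The libraries of small RNA were 6 from cultures of control lambs (control 1 to 6) and 6 from cultures of lambs with persistent pulmonary hypertension of the newborn (PPHN 7 to 12). Fetuses were operated on at about 125 days of gestation. In the PPHN group the ductus arteriosus was tied and stayed so for 5 to 7 days, and controls had a sham operation. All cells came from the main pulmonary artery, were purified on CD31 beads and were grown in serum through passages 2 to 5, so the values are those of cultured cells. No breed or genotype is labelled, and the labels do not say that each library is a lamb of its own, so a p-value here reflects library-to-library spread, which may include technical spread.

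The listed entries held 2250077 to 17740932 counts per library. The endothelial miRNA miR-126 was nearly missing from control 2, PPHN 8 and PPHN 11: the 3 entries that carry the name miR-126 (ccr-miR-126-3p, mmu-miR-126a-5p and gga-miR-126-3p by their first names) summed to 8.68 to 10.9 CPM there and to 364 to 4258 CPM in the other 9 libraries. Most miR-126 reads stood in another entry, mmu-miR-126b-3p, which had 161 to 195 CPM in those 3 libraries and 10588 to 98168 CPM in the rest. CPM are counts relative to the TMM-scaled library total over all listed entries. PPHN 8 and PPHN 11 also had the lowest totals, and log2 fold changes of the 9 entries are given without them too.

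The names set limits on what each entry counts. The entry of miR-16b alone carries a sheep name, 3 entries carry a cow name, and 7 join several names. The miR-15a-5p entry has only a hamster name and the miR-424-5p entry has names of human, other primates, horse and pig but of no ruminant. The miR-15b-3p, miR-195-3p and miR-503-5p entries also have no ruminant name. Part of the sheep reads may be missing from all of these, which was not tested. Mature miR-16 can come from either miR-15/16 cluster, and the counts cannot tell these apart. The 5p arm of miR-195 was not analysed here, and miR-195 is represented by its 3p arm.

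Among the 9 entries, miR-16b was far the most abundant, at a mean of 5448 ± 1435 CPM over the 12 libraries (SD, n = 12), and ranked 24 of all 468 entries. The next was miR-15b-5p at 289 ± 76.0 CPM, below miR-16b in 12 of 12 libraries. Then came miR-497-5p at 54.8 ± 53.0 CPM, miR-424-5p at 39.4 ± 23.2 CPM and miR-424-3p at 39.1 ± 19.0 CPM, which changed places from library to library. Of these, miR-497-5p exceeded miR-424-5p in 5 of 12 libraries, and miR-424-5p exceeded miR-424-3p in 7 of 12. The passenger arm miR-15b-3p followed at 18.0 ± 8.19 CPM. The lowest 3 were miR-15a-5p at 5.94 ± 2.42 CPM, miR-195-3p at 4.82 ± 5.04 CPM and miR-503-5p at 3.86 ± 2.60 CPM, of which miR-195-3p exceeded miR-503-5p in 6 of 12 libraries. Levels of different miRNAs also depend on how well each ligates to the adapters.

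**Figure D1:**
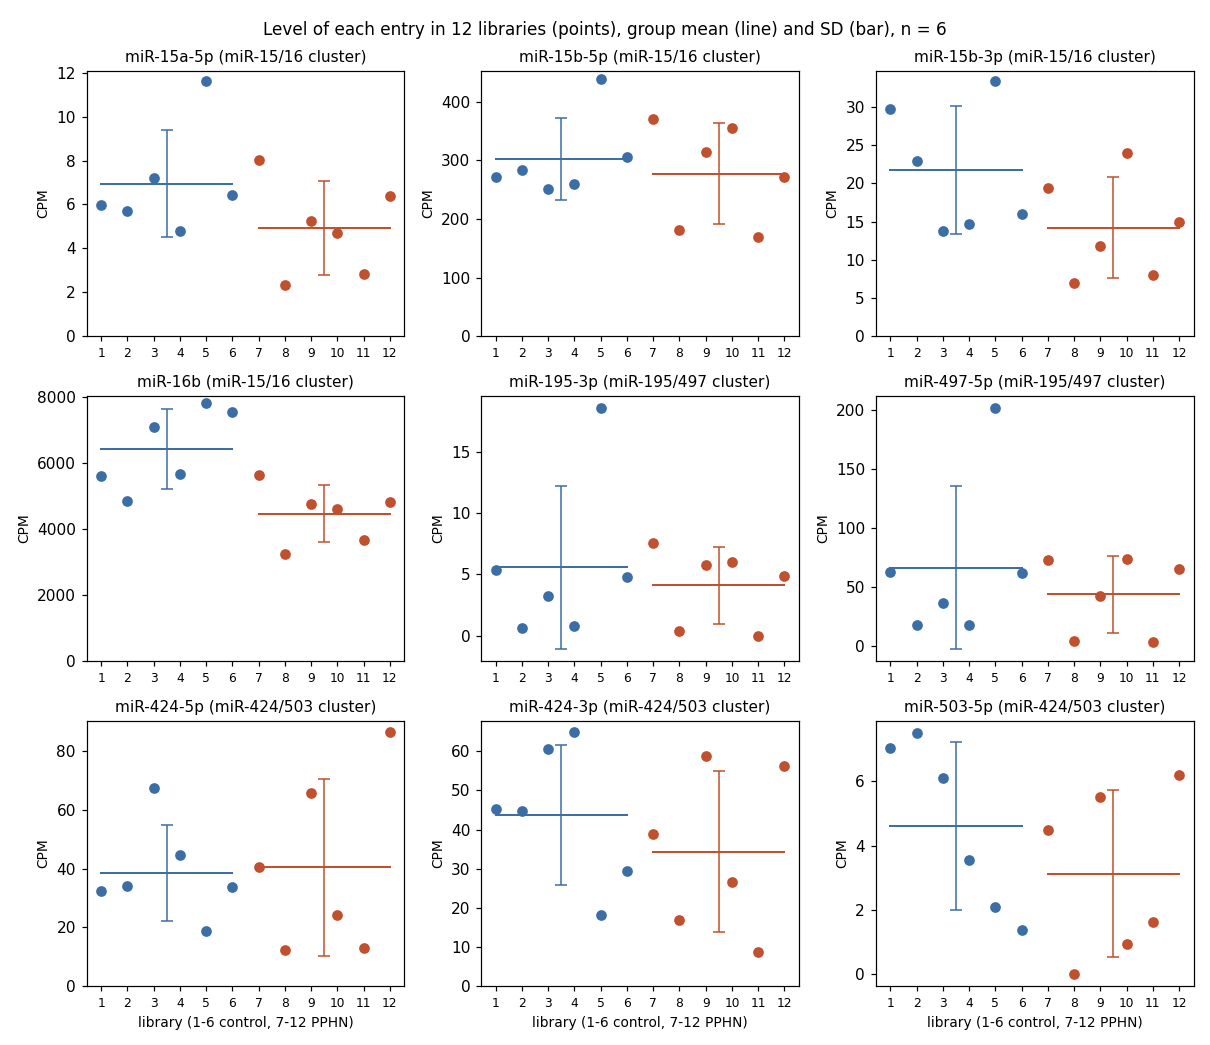
Level of each entry (CPM, linear axis) in control libraries 1 to 6 (blue) and PPHN libraries 7 to 12 (orange), with group mean and SD. Control 5 is the highest library for miR-15a-5p, miR-15b-5p, miR-15b-3p, miR-16b, miR-195-3p and miR-497-5p, and PPHN 8 or PPHN 11 is the lowest in each panel.

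The miR-15/16 clusters made up nearly all of the counts of the 9 entries, mainly through miR-16b. They held 97.7 ± 0.475% of the counts of the 9 entries in controls, and PPHN libraries had 97.6 ± 1.34% (SD, n = 6). The share of miR-195 and miR-497 together was 0.948 ± 0.853% and 0.879 ± 0.634%, and that of miR-424 and miR-503 was 1.32 ± 0.568% and 1.51 ± 0.904%. The minor clusters varied most: miR-195 and miR-497 took 2.57% of the counts of the 9 entries in control 5 and 0.0730% in PPHN 11. These shares leave out the 5p arm of miR-195. The miR-195-3p, miR-424-5p and miR-503-5p entries have no ruminant name, so the shares of the minor clusters may be too low. The miR-15a-5p and miR-15b-3p entries have none either, so the share of the miR-15/16 clusters may also be affected.

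In the miR-15/16 clusters, the G1 restraining miRNA miR-16b was 1.44-fold lower in PPHN. Its control libraries ranged from 4855 in control 2 to 7807 CPM in control 5, with a median of 6385 CPM. The PPHN libraries ranged from 3252 in PPHN 8 to 5652 CPM in PPHN 7, with a median of 4692 CPM. In 5 of 6 PPHN libraries the level was below every control, and PPHN 7 lay inside the control range. The gap was narrow, with PPHN 12 at 4825 CPM just below control 2. The control mean was 6432 ± 1207 CPM and the PPHN mean 4464 ± 867 CPM (SD, n = 6). The log2 fold change of -0.53 (SE 0.18) did not pass edgeR's quasi-likelihood test after Benjamini-Hochberg adjustment (adjusted p = 0.340). Without PPHN 8 and PPHN 11 the log2 fold change was -0.38 (SE 0.17). These are bulk samples, so fewer cells of a type and less RNA per cell cannot be told apart.

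The partner miR-15b-5p, which has the same seed as miR-16, differed little between groups. It ranged from 252 to 439 CPM in control (median 278 CPM) and from 169 to 370 CPM in PPHN (median 293 CPM). Only PPHN 8 and PPHN 11 lay below the controls, and only control 5 lay above the PPHN libraries. Its log2 fold change was -0.12 (SE 0.24), and 0.12 (SE 0.21) without PPHN 8 and PPHN 11. The other arm of this hairpin, miR-15b-3p, stood at 13.8 to 33.4 CPM in control (median 19.5 CPM) and at 7.01 to 23.9 CPM in PPHN (median 13.4 CPM), with 3 PPHN libraries below every control. It had a log2 fold change of -0.61 (SE 0.36; edgeR adjusted p = 0.579), and -0.31 without PPHN 8 and PPHN 11.

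The counts of miR-15a-5p, the guide strand from the DLEU2 cluster, were few, from 7 to 132 per library. It ranged from 4.77 to 11.6 CPM in control (median 6.19 CPM) and from 2.34 to 8.01 CPM in PPHN (median 4.98 CPM). The ranges overlapped in part, with 3 PPHN libraries below every control and control 5 above every PPHN library. The log2 fold change was -0.48 (SE 0.35; edgeR adjusted p = 0.701), and -0.19 without PPHN 8 and PPHN 11.

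The cluster of miR-195 and miR-497, known from the mouse heart to promote cell cycle exit after birth, differed between libraries far more than between groups. The level of miR-497-5p ran from 2.83 CPM in PPHN 11 (7 counts) and 4.34 CPM in PPHN 8 (13 counts) to 202 CPM in control 5 (2116 counts), a 71.2-fold range. In the other controls it stood at 62.2 CPM in control 1, 61.7 CPM in control 6, 35.9 CPM in control 3, 17.9 CPM in control 4 and 17.8 CPM in control 2. In the other PPHN libraries it stood at 73.5 CPM in PPHN 10, 72.5 CPM in PPHN 7, 65.4 CPM in PPHN 12 and 42.5 CPM in PPHN 9. The control median was 48.8 CPM and the PPHN median 53.9 CPM, so the medians are ordered against the means of 66.2 ± 69.2 CPM (control) and 43.5 ± 32.9 CPM (PPHN; SD, n = 6). Its log2 fold change was -0.60 (SE 0.84; edgeR adjusted p = 0.906). It was 0.16 without control 5 and -0.06 without PPHN 8 and PPHN 11.

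The 3p arm of miR-195 followed miR-497-5p through the libraries. It had 195 counts in control 5 (18.6 CPM), 10 in control 4, 3 in control 2, 1 in PPHN 8 and 0 in PPHN 11, where a count of 0 allows up to 1.21 CPM. The remaining libraries lay between 3.20 CPM in control 3 and 7.52 CPM in PPHN 7. Its log2 fold change was -0.41 (SE 0.94; edgeR adjusted p = 0.920). It was 0.52 without control 5 and 0.12 without PPHN 8 and PPHN 11. The standard deviation of log2 CPM over the 12 libraries was 1.78 for miR-195-3p and 1.74 for miR-497-5p, against 0.39 for both miR-16b and miR-15b-5p and a median of 0.74 over all tested entries.

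Levels of miR-497-5p moved with miR-126. The 4 libraries with the least miR-497-5p (PPHN 11, PPHN 8, control 2 and control 4) were the 4 with the least miR-126, and control 5 was the highest in both, with the 3 miR-126 entries at 4258 CPM and mmu-miR-126b-3p at 98168 CPM. The same 4 libraries were also the lowest 4 for the smooth muscle list, led by miR-143, of which 2 of 5 names had an entry. That list summed to 2158 to 4314 CPM in these libraries and to 7525 to 301452 CPM in the others, but it stood at only 7525 CPM in control 5, where miR-497-5p was highest. The part of these cell markers in the result was not tested.

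**Figure D2:**
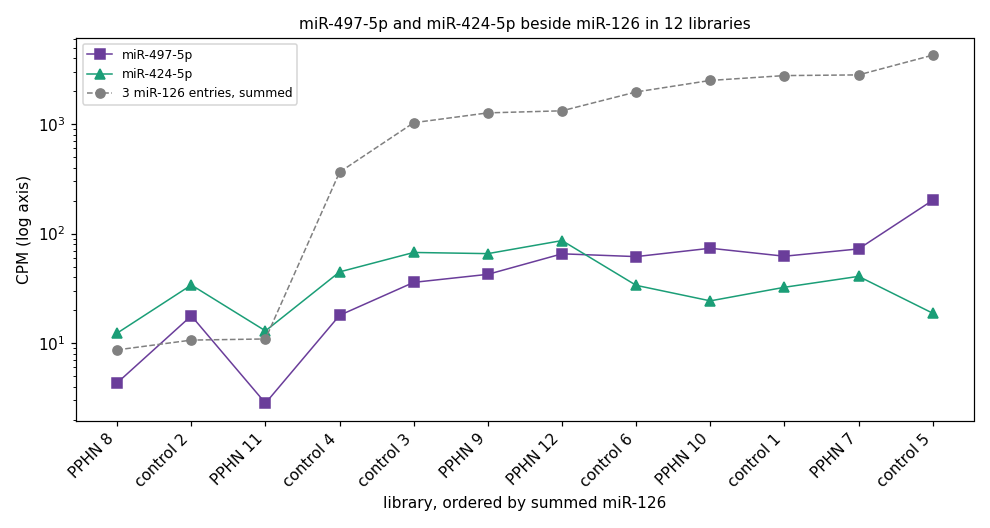
CPM (log axis) of miR-497-5p (squares), miR-424-5p (triangles) and the sum of the 3 entries that carry the name miR-126, without mmu-miR-126b-3p (circles), in the 12 libraries, ordered by miR-126. From control 4 to control 5 miR-497-5p goes from 17.9 to 202 CPM, while miR-424-5p is highest in the middle, at 86.4 CPM in PPHN 12, and at 18.8 CPM in control 5.

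The cluster of miR-424 and miR-503 had another order of libraries. Its miRNAs are known to act downstream of apelin on FGF2 and FGFR1 in human pulmonary artery endothelial cells, and to be reduced there in pulmonary arterial hypertension. The level of miR-424-5p was highest in PPHN 12 at 86.4 CPM, control 3 at 67.3 CPM and PPHN 9 at 65.6 CPM. It was lowest in PPHN 8 at 12.4 CPM (37 counts), PPHN 11 at 12.9 CPM (32 counts) and control 5 at 18.8 CPM. The other libraries lay between 24.3 CPM in PPHN 10 and 44.7 CPM in control 4. The groups overlapped widely, with a control median of 33.8 CPM and a PPHN median of 32.5 CPM. Its log2 fold change was 0.07 (SE 0.51; edgeR adjusted p = 0.975), the only one of the 9 above 0, and 0.49 (SE 0.42) without PPHN 8 and PPHN 11. It was -0.11 with limma-voom and lay between -0.30 and 0 when control 1, control 5, PPHN 7, PPHN 9 or PPHN 12 was left out.

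Its other arm, miR-424-3p, was as abundant as the 5p entry. The pooled count ratio of 5p to 3p was 0.974, and the log2 ratio in a library lay between -0.54 in control 4 and 0.61 in PPHN 12. By comparison, miR-15b-5p had 16.4 times the pooled counts of miR-15b-3p. The miR-424-3p entry carries a cow name and the miR-424-5p entry no ruminant name. In turn, the miR-15b-5p entry carries a cow name and the miR-15b-3p entry no ruminant name. Either ratio may therefore not be that of the arms, which was not tested. Levels of miR-424-3p ranged from 18.3 to 64.9 CPM in control (median 44.9 CPM) and from 8.90 to 58.7 CPM in PPHN (median 32.7 CPM), with a log2 fold change of -0.35 (SE 0.47; edgeR adjusted p = 0.906), and 0.04 without PPHN 8 and PPHN 11.

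The neighbour miR-503-5p, an anti-angiogenic miRNA raised in diabetic endothelium, was near the limit of detection, with 0 to 74 counts per library. It was at 0 counts in PPHN 8, which allows up to 1.00 CPM, at 0.942 CPM in PPHN 10, 1.38 CPM in control 6 and 1.62 CPM in PPHN 11. It reached 7.50 CPM in control 2, 7.03 CPM in control 1 and 6.18 CPM in PPHN 12. The control median was 4.82 CPM, that of PPHN was 3.05 CPM, and the log2 fold change was -0.52 (SE 0.73; edgeR adjusted p = 0.906), and -0.11 without PPHN 8 and PPHN 11.

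In the table of all entries, the profiles closest to miR-424-5p were those of its neighbours in the X-linked cluster. Likeness was measured as the root mean square difference of log2 CPM, each entry centred on its mean over the 12 libraries, among 318 entries outside these families with a mean of at least 10 CPM. The closest entry was hsa-miR-450b-5p (0.27), then hsa-miR-450a-5p (0.27) and hsa-miR-542-5p (0.50), against a median of 1.07 over all candidates. The level of hsa-miR-450b-5p, known in human as part of the same X-linked cluster, was far higher than that of miR-424-5p, from 178 CPM in PPHN 11 to 1092 CPM in control 3. The 3 libraries with the most of it, control 3, PPHN 12 and PPHN 9, were the 3 with the most miR-424-5p. The closest to miR-503-5p was also hsa-miR-450b-5p, but at 0.995. All 4 neighbour entries were tested, 3 lower and 1 higher in PPHN, and 0 passed in either direction, with cgr-miR-542-3p lowest at a log2 fold change of -0.56 (SE 0.36; edgeR adjusted p = 0.598).

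The fibroblast list of miR-199a, miR-199b, miR-214 and miR-140 also had its 4 lowest libraries in common with miR-424-5p. All 4 fibroblast names had an entry, and the 10 entries summed to 3505 to 20301 CPM in the controls and to 496 to 10030 CPM in PPHN. Control 3 was highest and PPHN 11 lowest in this list. Like 8 of the 9 family entries, 10 of 10 fibroblast entries had a log2 fold change below 0, against 54.5% of all tested entries. The 10 entries belong to only 4 names, so they are not independent. PPHN 11 (496 CPM) and PPHN 8 (1868 CPM) had the lowest sums of this list, and its fold changes were not computed without them. The median of the fibroblast entries was -0.82, and 0 passed. The lowest p was that of dre-miR-140-3p, at 562 ± 256 CPM (control) and 305 ± 50.6 CPM (PPHN; SD, n = 6; edgeR adjusted p = 0.399). The part of these markers in the family's levels was not tested.

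**Figure D3:**
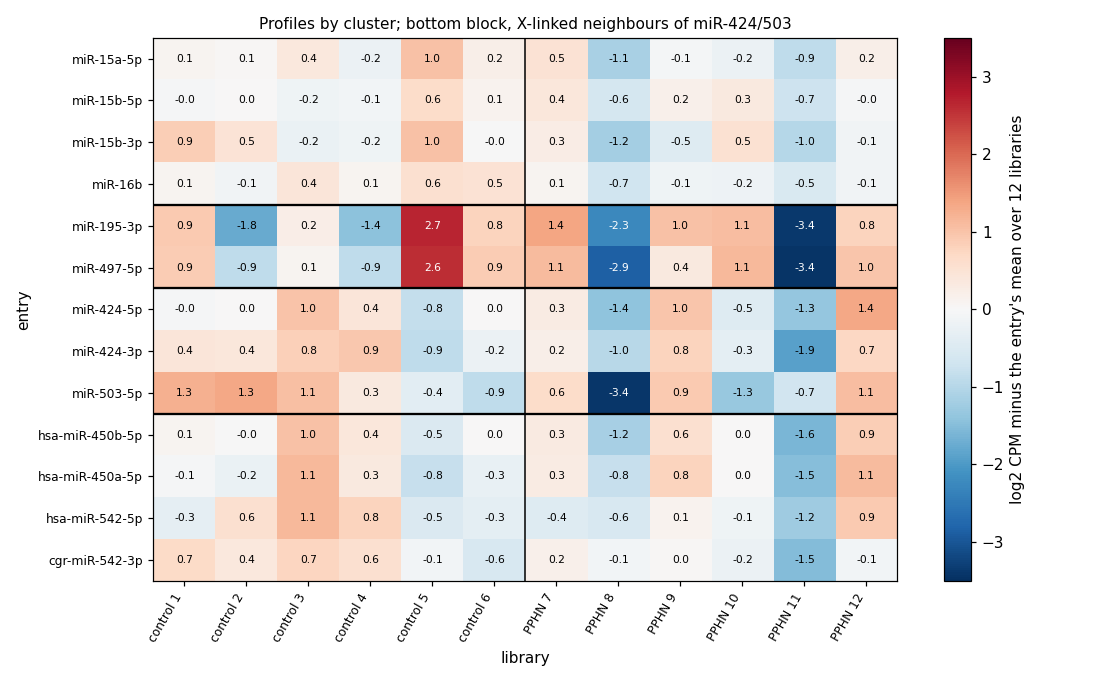
Log2 CPM of each entry minus its own mean over the 12 libraries (colour and printed value), with the entries of the miR-15/16, the miR-195 and miR-497, and the miR-424 and miR-503 clusters and 4 X-linked neighbours in blocks from top to bottom. In control 5 miR-195-3p and miR-497-5p stand at 2.66 and 2.59 while miR-424-5p stands at -0.82, and PPHN 8 and PPHN 11 are below 0 in every row.

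The other clusters had less similar neighbours or none of their own cluster to find. For miR-497-5p the closest entries were hsa-miR-449b-5p (0.79) and hsa-miR-449a (0.80), miRNAs of multiciliated cells that also restrain the cell cycle, and bta-miR-2285x (0.85), against a median of 1.83. For miR-16b they were oar-miR-30b (0.22), bta-miR-342 (0.24) and ssc-miR-151-3p (0.25), and for miR-15b-5p they were ssc-miR-151-3p (0.24), bta-miR-2285f (0.26) and mmu-miR-361-3p (0.26). Entries with small variation lie close to each other on this measure. Within the families, members of 1 cluster lay closer than members of different clusters for miR-424-5p and miR-424-3p (0.37) and for miR-195-3p and miR-497-5p (0.41). The distance between miR-497-5p and miR-424-5p was 1.49. The sparse miR-503-5p was an exception, since it lay at 0.90 from miR-424-5p while miR-15a-5p lay at 0.77. The miR-15/16 clusters were not set apart from each other either. There miR-15a-5p lay at 0.30 from miR-16b and at 0.32 from miR-15b-5p. From miR-15b-5p, miR-16b lay at 0.30 and miR-15b-3p at 0.41. The log2 ratio of miR-497-5p to miR-424-5p, chosen after values were seen, went from -1.92 in PPHN 11 to 3.41 in control 5.

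Between the groups, 8 of 9 entries had a log2 fold change below 0, against 54.5% of the 468 tested entries. The median was -0.48 for the 9 entries and -0.08 for all tested entries. None passed: 0 of 9 had an edgeR adjusted p under 0.05, as did 0% of all entries, and adjusted p ranged from 0.340 to 0.975. At an unadjusted p under 0.05 stood 1 of 9 entries, miR-16b, against 10.5% of all entries, or 5.56% counting only lower ones. DESeq2 called 0 of 9 entries (2.56% of all), with 1 of 9 at an unadjusted p under 0.05 (15.4% of all). By limma-voom 0 of 9 were called (0% of all), with 1 of 9 at an unadjusted p under 0.05 (9.4% of all). Groups overlapped for all 9 entries, while 1.28% of all entries had groups without overlap. In the authors' deposited table the lowest p of the 9 entries was that of miR-16b by DESeq2 and edgeR, with a log2 fold change of -0.51 and p = 0.00488 in the DESeq2 columns and -0.53 with p = 0.0110 in the edgeR columns. By the DESeq columns of the authors' deposited table it was that of miR-15b-3p (p = 0.615), before miR-16b (p = 0.632).

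The count of lower entries and their median depended on PPHN 8 and PPHN 11, and less on control 5. All 9 entries were below their own mean in both libraries, and the lowest of the 12 libraries was PPHN 8 for 5 entries and PPHN 11 for the other 4. Their median deviation was -1.18 and -0.99 on the log2 scale, against -0.03 and -0.01 over all tested entries. Without them 5 of 9 entries had a log2 fold change below 0 and the median was -0.06, against -0.13 for all tested entries, while miR-16b, miR-15b-3p and miR-15a-5p were still below 0 by the values above. Without control 5 alone 6 of 9 entries were below 0, and the median was -0.27. The low miR-126 of PPHN 8 and PPHN 11 is shared by control 2, in which 3 of 9 entries were below their mean. Without all 3 libraries 5 of 9 entries were below 0, and miR-16b had a log2 fold change of -0.47 (SE 0.16; edgeR adjusted p = 0.542).

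**Figure D4:**
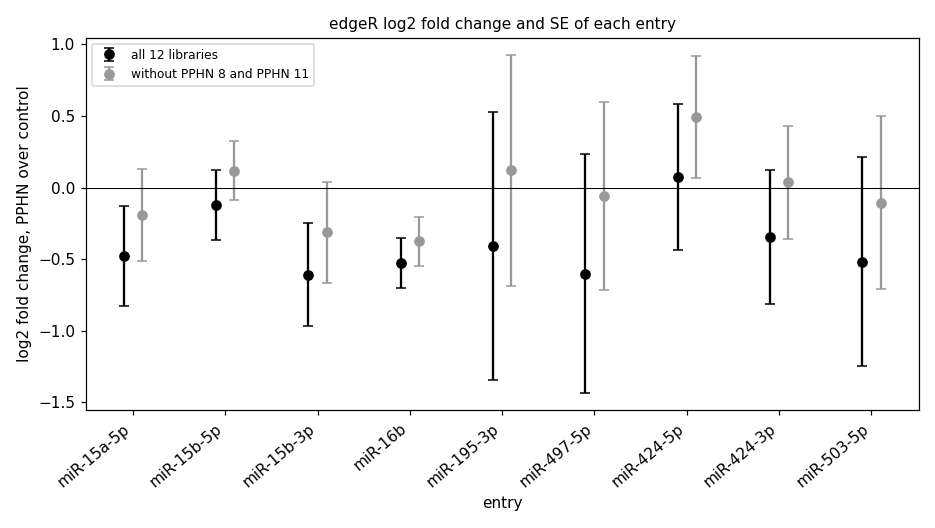
Log2 fold change (PPHN over control) with SE of the 9 entries from edgeR, for all 12 libraries (black) and without PPHN 8 and PPHN 11 (grey). The value of miR-16b goes from -0.53 to -0.38 and that of miR-424-5p from 0.07 to 0.49.

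Entries of the same or of different clusters were contrasted with ratios of 2 entries within a library, which need no scaling. Of 7 ratios set up, 4 could be formed, since 3 needed the 5p arm of miR-195, and 2 counts were added to each entry. The log2 ratio of miR-15b-5p to miR-16b was -4.42 ± 0.275 among controls and -4.05 ± 0.255 among PPHN libraries (SD, n = 6). The difference of 0.37 had an exact two-sided permutation p of 0.0455 over 924 assignments and did not pass after Benjamini-Hochberg adjustment over the 4 ratios (adjusted p = 0.160). In PPHN 10, PPHN 9 and PPHN 7 the ratio was above every control, and in PPHN 8, PPHN 11 and PPHN 12 it lay within the control range.

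The other ratios did not pass either. The log2 ratio of miR-15a-5p to miR-15b-5p, which sets the DLEU2 cluster against the SMC4 cluster, was -5.40 ± 0.233 among controls and -5.71 ± 0.304 among PPHN libraries (n = 6; exact two-sided permutation p = 0.0801, adjusted p = 0.160). That of miR-424-5p to miR-16b was -7.46 ± 0.707 and -7.11 ± 0.941 (exact two-sided permutation p = 0.485, adjusted p = 0.485). That of miR-424-5p to miR-503-5p, within the X-linked cluster, was 3.09 ± 0.833 and 3.56 ± 0.676 (exact two-sided permutation p = 0.288, adjusted p = 0.384), and it ran from 2.12 in control 2 to 4.29 in PPHN 8, where miR-503-5p had 0 counts.

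**Figure D5:**
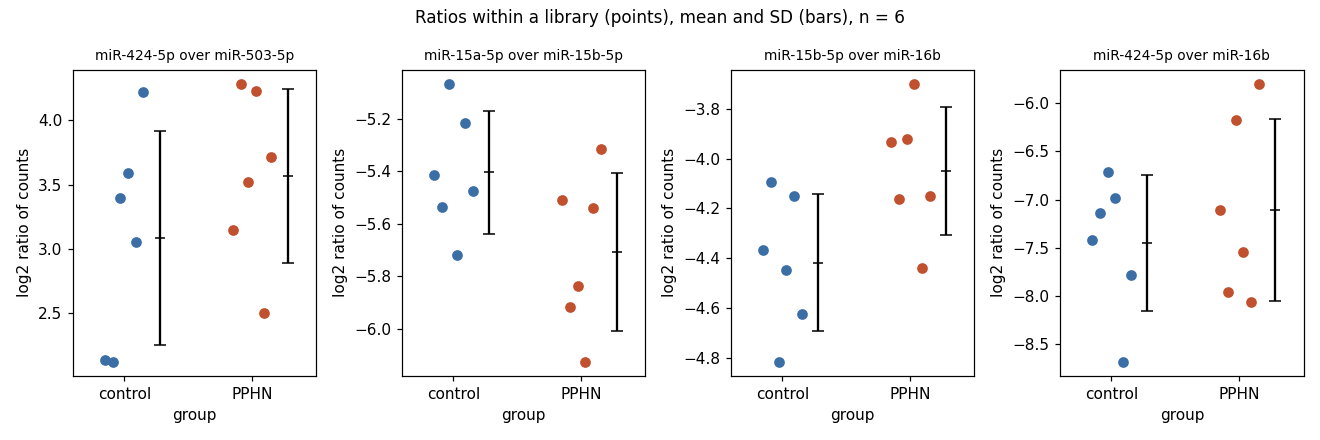
Log2 ratios of counts of 2 entries within each library in control (blue) and PPHN (orange), with mean and SD (n = 6). The groups overlap in all 4 panels, and the ratio of miR-15b-5p to miR-16b averages -4.42 in control and -4.05 in PPHN.

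Related miRNAs of the cell cycle were read from further lists. The relatives miR-103 and miR-107, which share most of the miR-16 seed, were both below control: oar-miR-103 averaged 2445 ± 493 CPM (control) and 1735 ± 322 CPM (PPHN; SD, n = 6; log2 fold change -0.49, SE 0.17; edgeR adjusted p = 0.360), and oar-miR-107 had a log2 fold change of -0.42 (SE 0.21). They did not pass, with 0 of 2 called. Of other miRNAs known to restrain the G1 to S step, such as let-7, miR-26 and miR-34, 15 of 22 entries were higher and 7 lower, and 0 passed in either direction, with a median log2 fold change of 0.04. Of miRNAs known to drive it, such as miR-17, miR-92a and miR-221, 2 of 19 entries were higher and 17 lower, 0 passed, and the median was -0.31. Over all tested entries 54.5% were lower. Both lists hold several entries of the same miRNA, such as those of miR-92a in the second, all lower, so the entries are not independent. In the first list the lowest p values went both ways: oar-miR-26b had a log2 fold change of -0.53 (SE 0.12; edgeR adjusted p = 0.190), mmu-miR-34c-5p 1.81 (SE 0.54; adjusted p = 0.315), oar-miR-26a 0.41 (SE 0.18; adjusted p = 0.430) and hsa-let-7e-5p -2.19 (SE 1.02; adjusted p = 0.430). In the second list hsa-miR-92a-3p had -0.53 (SE 0.18; edgeR adjusted p = 0.340).

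Markers of further cell types were the blood and epithelial lists. The blood list had entries for 2 of 5 names, both lower, and summed to 69.0 to 900 CPM in the controls and to 15.4 to 203 CPM in PPHN. Most of it was hsa-miR-486-5p, a red blood cell miRNA, 4.48-fold lower in PPHN (log2 fold change -2.16, SE 0.73; edgeR adjusted p = 0.340). The other entry, gga-miR-451, was scarce, with a mean of 4.20 CPM (control) and 2.44 CPM (PPHN) and a log2 fold change of -0.73 (SE 0.78, edgeR adjusted p = 0.839). The epithelial list had 1 entry, oar-miR-200b, from 29.5 to 150 CPM in PPHN. In the controls it stood at 398 CPM in control 4, at 4.74 CPM in control 2 and at 0 to 0.229 CPM in the others. Its median was 0.210 CPM (control) and 62.4 CPM (PPHN), and its log2 fold change was 0.13 (SE 1.74, edgeR adjusted p = 0.976). The part of the blood and epithelial markers in the levels above was not tested.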

How the data were processed

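Raw counts of reads were deposited for each miRNA entry in 12 libraries, per the file headers, with p-values and q-values and log2 fold changes of DESeq, DESeq2 and edgeR. Per the submitters' processing notes, the tools included Bowtie 1.1.1 and Trim Galore 0.2.5. For their settings, the genome build and the miRNA reference: not given in the sources used here. The listed counts are not the sequencing depth.

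The main test was edgeR 4.0.16 under R 4.3.3 (filterByExpr, TMM, robust quasi-likelihood), with Benjamini-Hochberg adjustment over 468 entries and a threshold of 0.05. SE is the log2 fold change over the root of F. Log2 CPM used a prior count of 2. Floors are 3 counts and, like counts near 0, cover counting error only. Replicate numbers are not shared between groups. Alternatives were DESeq2 1.42.0, limma-voom (limma 3.58.1), scaling by RLE or upper quartile, other filters, other added counts, and left-out libraries. The test was tested on simulated data, with 10 simulations of 450 entries per fold and 20 entries changed in each. It recovered 3% of 2-fold changes, 49.5% of 4-fold changes and 64.5% of 8-fold changes. The share of false calls was 2.94% for 4-fold and 4.44% for 8-fold changes. The 2-fold changes gave too few calls for such a share, and the 10% computed there is too low. Most 2-fold changes were thus missed, and smaller ones were not simulated. The lack of calls among the family entries therefore does not show that their levels were equal. Members, lists and tests were chosen with earlier results of these data known. Named entries are all members, the 3 closest profiles per main member, and up to 4 entries of lowest p per list.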

Additional observations from a re-analysis of the deposited data

Results flagged for a closer look

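Of 26 groups of 6 libraries checked (levels and ratios), 4 held 1 library whose gap to its nearest neighbour was above the critical value of Dixon's test, where chance gives about 5% of groups. In all 4 it was control 5, so they are not independent. There miR-15a-5p reached 11.6 CPM (4.77 to 7.21 CPM among the remaining controls) and miR-15b-5p reached 439 CPM (252 to 305 CPM). The level of miR-497-5p was 202 CPM, against 17.8 to 62.2 CPM, and that of miR-195-3p was 18.6 CPM, against 0.592 to 5.32 CPM.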

How the results depend on the processing

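Over 20 alternatives, 0 of the 9 entries passed the adjusted threshold, and miR-16b stayed below 0 throughout (log2 fold change -0.64 to -0.38, adjusted p from 0.104 to 0.834). Over all entries DESeq2 called 12, and 0 to 1 were called with 1 library left out (1 without PPHN 8). Of 9 entries 8 were lower, 6 to 9 with 1 library left out; 5 of the 6 that remained were lower with the filter of 10 CPM in 6 libraries, 5 of 9 without control 2, PPHN 8 and PPHN 11, and 5 of 9 without PPHN 8 and PPHN 11, a choice made after seeing the data. The filter of 10 CPM moved the median log2 fold change of all entries from -0.08 to 0.04.

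Signs turned for entries that were not called. With 1 library left out the log2 fold change ranged from -0.28 to 0.013 for miR-15b-5p, from -0.77 to 0.52 for miR-195-3p, from -0.96 to 0.16 for miR-497-5p and from -0.30 to 0.26 for miR-424-5p. The turns of the first 3 came without control 5. With limma-voom miR-195-3p had 0.26 and miR-424-5p -0.11. Without PPHN 8 and PPHN 11 the values were 0.12 for miR-15b-5p, 0.12 for miR-195-3p and 0.037 for miR-424-3p, and without control 2 as well they were 0.073 for miR-15b-5p, 0.0051 for miR-424-3p and 0.036 for miR-503-5p. The cause was not tested.

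None of the 4 ratios changed sign or passed in 16 alternatives each. Among these, summing guide-arm entries could not differ from the main setting, since each name had a single such entry. The lowest adjusted permutation p was 0.0571, for miR-15b-5p over miR-16b without PPHN 8 and PPHN 11 (difference 0.49). With 0.5 in place of 2 added counts the difference for miR-424-5p over miR-503-5p was 0.85 in place of 0.48. No paired analysis was possible because the groups share no replicate numbers. The few counts of miR-503-5p, miR-195-3p and miR-15a-5p limit their precision.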
